A study of Mus musculus with 4 samples.

Results

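The major urinary protein cluster of mouse chromosome 4 was followed through the topologically associating domains (TADs) of a hepatocyte line grown in 2D and in 3D. A TAD is a stretch of chromatin whose parts contact each other more often than they contact the neighbouring chromatin. The members were 10 protein-coding genes chosen by name on chromosome 4 of mm10, namely Mup1, Mup2, Mup3, Mup4, Mup5, Mup7, Mup10, Mup17, Mup20 and Mup21, out of 22 protein-coding Mup genes there and out of 21755 protein-coding genes on chromosomes 1 to 19 and X. The study compared the folding of the genome between AML12 cells, an immortalized mouse hepatocyte line, grown as a layer in dishes (2D) and the same line grown as spheroids embedded in Matrigel, a gel of extracellular matrix (3D). In situ Hi-C was made from 2 replicates of each culture, 4 samples in all, and every sample had received 1 mM hydroxyurea, which holds cells where DNA replication begins. The exposure lasted 24 h in the dishes and 36 h in Matrigel. The files hold 1 list of TADs per culture, called at 40 kb resolution after the replicates had been combined, with no score and no read count. The depth behind a single TAD is therefore unknown, no value has a replicate error, and no difference between the cultures could be tested. All cells came from 1 line, which was derived from a mouse transgenic for human TGF-alpha. The lists hold no expression, so its hepatocyte label was not checked here, and neither was the number of Mup copies in its genome.

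Major urinary proteins are small secreted lipocalins, made above all by hepatocytes, that pass into the urine and carry pheromones in a barrel-shaped pocket. In liver their transcription depends on growth hormone, which acts through its receptor Ghr, the kinase Jak2 and the transcription factors Stat5a and Stat5b. The genes arose by repeated duplication of one segment, and many pairs consist of a gene and a pseudogene on opposite strands. The central copies are near identical, whereas the genes at both edges of the cluster, such as Mup4, Mup5, Mup20, Mup3 and Mup21, have diverged more. Mup20 is known as darcin, a male pheromone that attracts females.

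The member genes span chr4:59956804-62150863 in GRCm38 (mm10), which is 2194 kb, and all 10 are annotated on the minus strand. From left to right they are Mup4 (ENSMUSG00000041333.6, chr4:59956804-59960710), Mup7 (ENSMUSG00000073842.10, chr4:60066469-60070475), Mup2 (ENSMUSG00000078688.11, chr4:60135932-60154289), Mup1 (ENSMUSG00000078683.9, chr4:60498012-60501960) and Mup10 (ENSMUSG00000078680.3, chr4:60578260-60582199). They continue with Mup17 (ENSMUSG00000096688.1, chr4:61591929-61595871), Mup5 (ENSMUSG00000058523.2, chr4:61831319-61835233), Mup20 (ENSMUSG00000078672.2, chr4:62050234-62054158), Mup3 (ENSMUSG00000066154.11, chr4:62083476-62087342) and Mup21 (ENSMUSG00000066153.2, chr4:62147932-62150863). Mup2 is the longest at 18358 bp, because its annotation includes a distant upstream start, and Mup21 the shortest at 2932 bp. The 12 other protein-coding Mup genes and the 26 Mup pseudogenes of GENCODE release M21 lie within the same span, so that it covers all 48 annotated Mup genes and pseudogenes.

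The repetition shows in the sequence itself. The following stretch of 150 bases, the length of 1 read, is given on the minus strand at chr4:60499684-60499833 in Mup1, where 111 bases are coding and 39 are intron. It is shown because a read equal to it could come from any of 15 places.
Mup1 exon stretch: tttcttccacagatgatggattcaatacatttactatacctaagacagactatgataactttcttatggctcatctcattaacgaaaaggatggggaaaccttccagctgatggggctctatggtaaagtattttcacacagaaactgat
The same 150 bases occurred at 15 positions of the genome, all within the Mup span. Of these, 4 lay in members, namely Mup7, Mup2, Mup1 and Mup10, and 11 in Mup8, Mup9, Mup11, Mup12, Mup22, Mup13, Mup14, Mup15, Mup16, Mup18 and Mup19. No exact copy was found in Mup4, Mup17, Mup5, Mup20, Mup3 or Mup21. Not every repeat of the cluster belongs to its duplication. The window of 150 bases with the highest copy number in any member was a simple repeat in an intron of Mup2, at chr4:60151038-60151187. It is shown here for its copy number.
Mup2 intron repeat: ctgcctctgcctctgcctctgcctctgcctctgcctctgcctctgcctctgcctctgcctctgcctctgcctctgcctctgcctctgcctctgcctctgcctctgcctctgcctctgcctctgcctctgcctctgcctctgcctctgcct
It occurred at 5780 positions of the genome, and all of its bases are soft-masked as repeats in the assembly. Overlapping positions within the same repeat count separately, and where the copies lie was not traced.

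The sequences before the gene starts differed in how much of them is unique. RefSeq promoter windows of GRCm38.p6, taken as the 250 bases before the start, were found for 7 of 10 members and for 14 of 22 protein-coding Mup genes. No entry was found for Mup1, Mup5 or Mup20. In the sequences below, capitals mark bases that belong to at least one run of 30 bases, within the window, that occurs once in the genome, and bases that GENCODE places in an exon of the gene were left out. They are shown because the mapping began with read ends of 30 bases, and any run of 30 bases shown that includes a lower-case base occurs more than once in the genome. The stretches lie on the minus strand at chr4:60139898-60140106 for Mup2, where they fall inside the annotated gene because of its distant start, at chr4:61595872-61596082 for Mup17, at chr4:60582200-60582405 for Mup10 and at chr4:62087343-62087567 for Mup3.
Mup2: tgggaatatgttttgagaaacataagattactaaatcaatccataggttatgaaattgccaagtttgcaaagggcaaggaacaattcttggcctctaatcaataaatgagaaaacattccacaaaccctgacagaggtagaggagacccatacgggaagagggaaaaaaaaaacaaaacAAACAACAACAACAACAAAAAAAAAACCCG
Mup17: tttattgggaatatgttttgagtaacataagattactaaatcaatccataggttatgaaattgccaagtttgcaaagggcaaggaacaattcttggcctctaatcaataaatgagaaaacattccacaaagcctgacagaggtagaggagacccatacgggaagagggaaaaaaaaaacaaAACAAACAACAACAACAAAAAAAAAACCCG
Mup10: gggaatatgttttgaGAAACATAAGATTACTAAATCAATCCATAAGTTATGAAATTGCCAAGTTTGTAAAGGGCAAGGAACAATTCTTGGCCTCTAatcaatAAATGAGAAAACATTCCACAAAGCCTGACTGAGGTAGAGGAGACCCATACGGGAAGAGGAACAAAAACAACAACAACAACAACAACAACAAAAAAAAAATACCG
Mup3: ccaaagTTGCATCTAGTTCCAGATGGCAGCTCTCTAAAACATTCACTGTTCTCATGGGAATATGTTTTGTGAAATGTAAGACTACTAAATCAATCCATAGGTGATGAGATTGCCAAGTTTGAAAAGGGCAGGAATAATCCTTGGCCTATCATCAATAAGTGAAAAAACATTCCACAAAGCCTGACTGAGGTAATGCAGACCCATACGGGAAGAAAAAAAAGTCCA
For Mup2 and for Mup17, 30 of the bases shown belonged to such runs, all in the A-rich stretch near the start, against 185 for Mup10 and 219 for Mup3. Over the whole 250 bases, the Mup2 and Mup17 windows aligned with 2 mismatches and 10 gap positions, and Mup2 and Mup10 with 8 mismatches and 10 gap positions. Mup3 and Mup21, which neighbour each other at the right edge, differed by 15 mismatches and 12 gap positions. Mup17 and Mup3 differed by 22 mismatches and 98 gap positions, and Mup4 and Mup17 by 19 mismatches and 64 gap positions. Mup7 and Mup17 had 3 mismatches and 258 gap positions. The windows end at different places relative to the genes, which adds gap positions, so no single identity is given. Of the windows of 30 bases within these 250 bases, 1.81% were unique in the genome for Mup2 and also for Mup17, 25.8% for Mup7, 69.2% for Mup10, 79.6% for Mup4, 88.2% for Mup3 and 91.4% for Mup21. The motif GATC, the site of MboI, the enzyme of the Hi-C, was in 2 of 7 member windows and in 41.9% of 32851 windows of the table. The motif TTCNNNGAA, the pattern that STAT factors bind, was in 0 of 7 member windows and in 7.02% of all. Both motifs read the same on both strands and neither contains the other, and a match or its absence only describes these letters.

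A border is here the start or the end of a TAD, and a stretch outside TADs is the interval between consecutive TADs, both on the grid of 40 kb bins. In the 2D list the member span held 4 TAD borders and parts of 3 TADs, and in the 3D list 1 border and part of 1 TAD. In 2D-cultured cells a TAD of 200 kb, chr4:59760001-59960000, held the left neighbours Inip, Snx30 and Slc46a2. Its right end was the bin edge 710 bp to the left of the start of Mup4. Borders are known only to the 40 kb grid, so this offset does not place the border within Mup4 or beside it. To the right of this TAD followed a stretch outside TADs of 400 kb, chr4:59960001-60360000, with the starts of Mup4, Mup6, Mup7, Mup2 and Mup8. Next came a TAD of 160 kb, chr4:60360001-60520000, which is 4 bins and held Mup9, Mup1 and 5 pseudogenes. It was followed by a stretch outside TADs of 1400 kb, chr4:60520001-61920000, which held 12 protein-coding Mup genes, from Mup10 to Mup5, and 15 pseudogenes. A TAD of 360 kb, chr4:61920001-62280000, then held Mup20, Mup3 and Mup21 with 3 pseudogenes and the neighbours Zfp37 and Slc31a2.

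In 3D-cultured cells the left part of the cluster carried no TAD. A single stretch outside TADs of 2160 kb, chr4:59800001-61960000, ran from beside the start of Inip to beyond Mup5. It held 19 of the 22 protein-coding Mup genes, from Mup4 to Mup5, and 24 of the 26 pseudogenes, together with the starts of Inip, Snx30 and Slc46a2. The TAD to its right, chr4:61960001-62280000, was 320 kb long and again held Mup20, Mup3 and Mup21. Its right end was at the same position as in 2D, and its left end lay 40 kb, or 1 bin, further right. The next TAD, chr4:62280001-62400000 with Fkbp15 and Slc31a1, had identical ends in both lists.

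**Figure D1:**
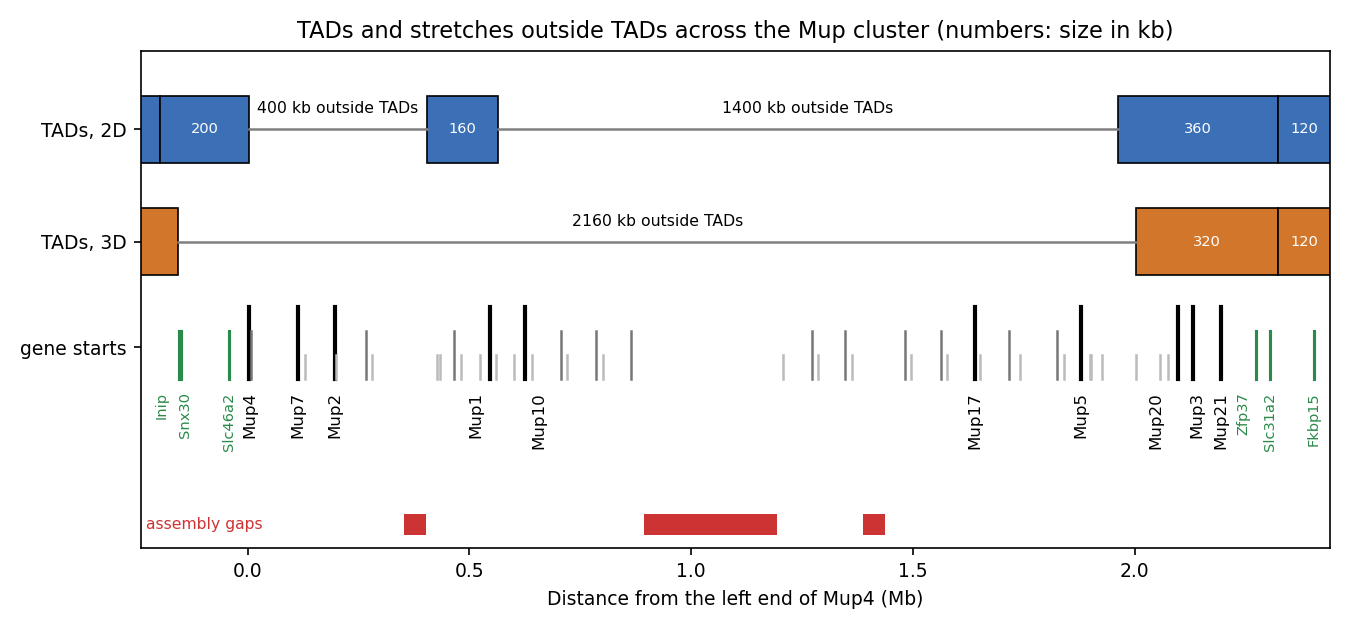
TADs (boxes, size in kb) and stretches outside TADs (lines) in 2D and 3D against the distance from the left end of Mup4 in Mb, with gene starts below: members as tall black ticks, other protein-coding Mup genes in dark grey, Mup pseudogenes as short light ticks, neighbours in green, and assembly gaps in red. The 160 kb TAD with Mup1 is drawn in 2D and has no counterpart in 3D, where 1 line of 2160 kb covers 7 of the 10 members, and both lists have a TAD over Mup20, Mup3 and Mup21.

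Of the 10 members, 4 started inside a TAD in 2D (Mup1, Mup20, Mup3 and Mup21) and 3 in 3D (Mup20, Mup3 and Mup21). Over all 21755 protein-coding genes, 76.7% started inside a TAD in 2D and 83.5% in 3D, and over the 1327 on chromosome 4 the shares were 75.5% and 80.3%. Mup4, Mup7, Mup2, Mup10, Mup17 and Mup5 started outside TADs in both lists, 6 of 10 against 12.6% of all genes and 14.3% of those on chromosome 4. Mup1 was the only member inside a TAD in 2D and outside in 3D, a combination found for 3.95% of all genes. No member showed the opposite combination, which 10.8% of all genes had. For Mup20, Mup3 and Mup21, the TADs of both lists were the same TAD when an offset of 40 kb at each end was allowed, as for 49.7% of all genes. These 6 members and Mup1 are not separate observations, since neighbours share a stretch or a TAD.

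Of the 12 protein-coding Mup genes that are no members, 1 (Mup9, the neighbour of Mup1) started inside a TAD in 2D and 0 in 3D, and 11 were outside TADs in both lists. Of the 26 pseudogenes, 8 started inside a TAD in 2D and 2 in 3D. Among the 48 genes and pseudogenes, 8 were inside a TAD in 2D only and 0 in 3D only.

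The distance from a gene start to the nearest TAD border also changed along the cluster. In 2D, Mup4 (0.710 kb) and Mup1 (18.0 kb) started within 40 kb of a border, 2 of 10 members against 41.1% of all genes. In 3D no member did, against 38.7% of all genes. Mup4 then lay 161 kb from a border and Mup1 702 kb, since the borders at 59960000, 60360000 and 60520000 had no 3D border nearer than 160, 560 and 720 kb. Mup10 moved from 62.2 to 782 kb and Mup2 from 194 kb to 354 kb. The members of the right edge stayed between 94.2 and 167 kb from a border in both lists, with Mup20 at 134 kb for the 2D list and 94.2 kb for the 3D list and Mup21 at 129 kb in both.

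By length, 394 kb of the span, or 18.0%, lay inside TADs in 2D and 191 kb, or 8.70%, in 3D. Much of this difference lay in the 160 kb TAD of Mup1. With TADs under 200 kb left out, the share was 10.7% in 2D and 8.70% in 3D. The difference of 3D minus 2D was then -1.97 instead of -9.26 percentage points, and 3 members started inside a TAD in each list. On chromosome 4, TADs covered 88.4% of the 3823 bins from the first to the last TAD in 2D and 90.8% in 3D. A part of 1800 kb, 82.0% of the span, was outside TADs in both lists, 191 kb was inside TADs in both, and 203 kb was inside a TAD only in 2D, with 0 kb in the opposite state. The 4 borders in 2D amounted to 1.82 per Mb and the 1 border in 3D to 0.456 per Mb. A single border, the left end of the TAD with Mup20, Mup3 and Mup21, was shared between the lists within 40 kb, and no border inside the span was at the same position in both.

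These stretches outside TADs were long for either list. The 2D list had 1569 stretches between consecutive TADs and the 3D list 1188, with a median of 80 kb in each. The 1400 kb stretch from Mup10 to Mup5 was longer than 99.2% of the 2D stretches and ranked 12, with 2 of that length, and the 2160 kb stretch was longer than 99.3% of the 3D stretches and ranked 8. On chromosome 4 both ranked 2, behind a stretch of 2560 kb in either list. Stretches of at least 1000 kb held the starts of 3 members in 2D and 7 in 3D, against 1.66% and 1.60% of all genes. The 10 longest stretches of each list had between 0.952 and 35.0% unique windows of 50 bases, and the Mup stretch in 3D had 27.0%.

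**Figure D2:**
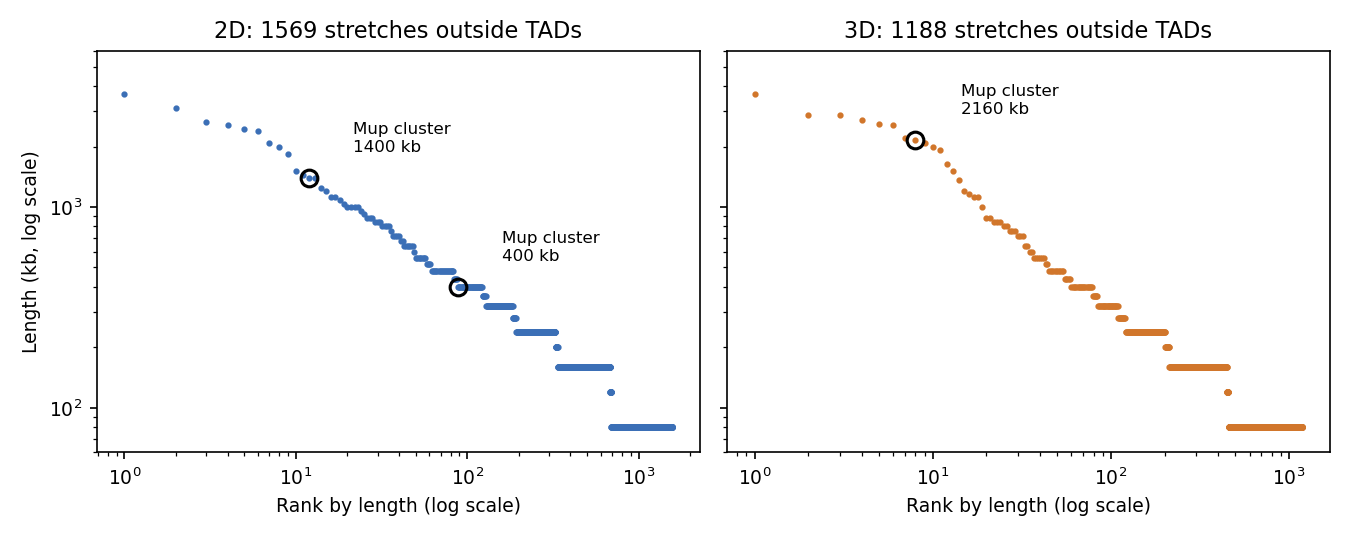
Length in kb of every stretch outside TADs against its rank by length in 2D (left) and 3D (right), both axes on a log scale, with the stretches of the Mup cluster circled. The circled stretches of 1400 and 2160 kb stand at ranks 12 and 8, and the 400 kb stretch of the 2D list lies among 35 stretches of its length.

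The limits that repeated sequence sets were measured on the reference. The authors kept read ends with a mapping quality above 30, so that a read from sequence with an equally good match elsewhere gives no contact. For each position it was asked whether the window of 30, 50 or 150 bases starting there occurs once in GRCm38 on either strand. Over the member span, 17.1% of windows of 30 bases were unique, 25.7% of windows of 50 bases and 49.9% of windows of 150 bases, the full read. The median 40 kb bin of the cluster had 14.2% unique windows of 50 bases (range 3.33 to 92.4%, 50 bins with sequence), against 94.3% for chromosome 4. Under 50% were unique in 39 of these 50 bins, or 78.0%, against 3.83% of the bins of chromosome 4. With windows of 150 bases the median bin had 45.3% in the cluster and 99.5% on chromosome 4. Read ends were extended up to 150 bases where shorter ones could not be placed, so the shares for 30 and 50 bases describe the earlier steps of the mapping. Windows that differ from another place by as little as 1 base were counted as unique at each length.

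**Figure D3:**
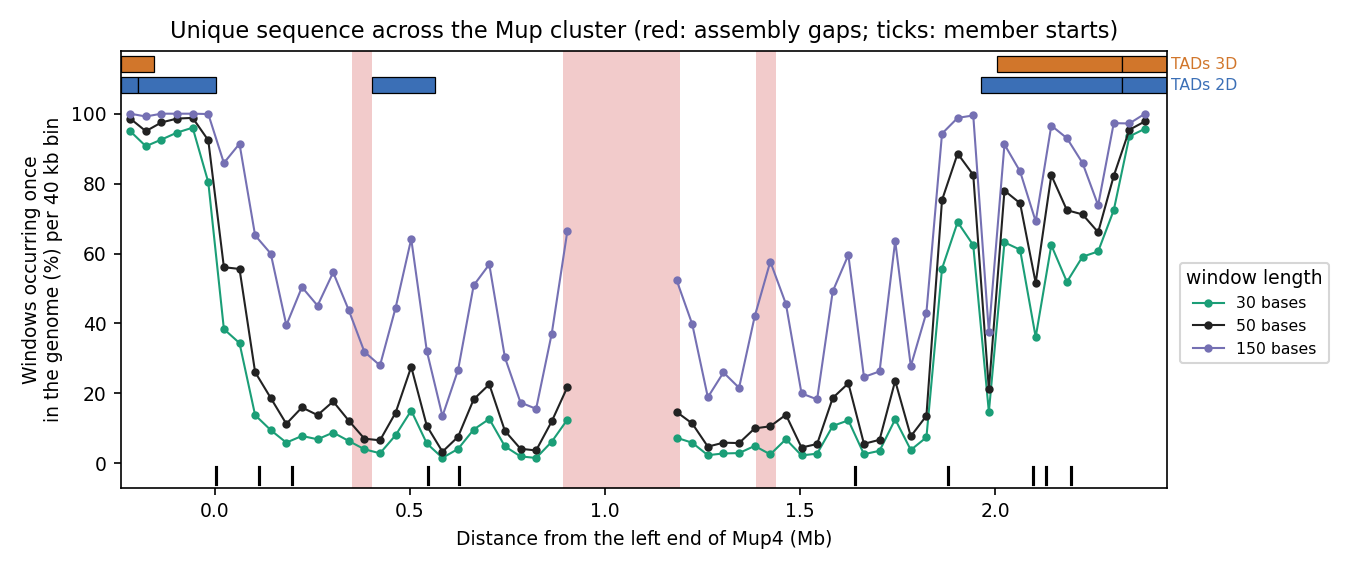
Share of windows of 30, 50 and 150 bases that occur once in the genome, in percent per 40 kb bin, against the distance from the left end of Mup4 in Mb, with TADs as boxes above, member starts as ticks below and assembly gaps shaded red. The share of unique 50-base windows falls from 92.4% in the bin that holds the left end of Mup4 to between 3.33 and 27.6% over the middle of the cluster, and the bins inside TADs in both lists have 51.6% or more.

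The members fell into separate ranges of uniqueness. In Mup4, Mup5, Mup3 and Mup21, 91.5, 92.6, 87.1 and 84.0% of the windows of 50 bases were unique. In Mup1 4.99% were, in Mup10 8.22%, in Mup2 9.69%, in Mup20 10.0%, in Mup7 10.8% and in Mup17 25.2%. With windows of 150 bases Mup4 and Mup5 reached 100%, while Mup1 stayed at 18.7% and Mup10 at 22.2%. The repetition of these genes came from within the cluster, since 95.0% of the windows of Mup1 and 91.8% of those of Mup10 were repeated in the cluster and nowhere else. Mup1 shared 88.9% of its distinct 50-base windows with Mup12, Mup10 shared 86.6% with Mup22, Mup7 64.0% with Mup15 and Mup17 54.9% with Mup22. Mup20, the darcin gene, shared 63.1% with the pseudogene Mup-ps19 and no more than 0.903% with any other member. Mup-ps19 starts in the bin left of the 3D border at 61960000, by which the TADs of the right edge differed between the lists.

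Uniqueness and place did not run in parallel for each member. Mup1, the member with the lowest share of unique windows, started inside a TAD in 2D, and the 160 kb TAD around it had 7.93, 14.8 and 42.2% unique windows of 30, 50 and 150 bases. Mup5, with the highest share, started outside TADs in both lists. The 3 bins that follow from chr4:61800001 to 61920000, which include Mup5, had 75.3, 88.6 and 82.5% unique windows of 50 bases and were outside TADs in both. On the left, the 3D stretch took in 3 bins over Snx30 and Slc46a2, chr4:59800001-59920000, with 97.5, 98.6 and 98.8% unique windows, which were inside a TAD in 2D. Of the 11 bins of the span with at least 50% unique windows, 6 were inside TADs in 2D and 5 in 3D. That left 5 outside TADs in 2D and 6 in 3D. Elsewhere on chromosome 4, the classes of bins from 50% unique upwards had 4.15 to 10.2% outside TADs in 2D. In 3D these classes had 2.87 to 7.01%.

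By place in both lists, the 5 cluster bins inside TADs in both had a median of 74.4% unique windows of 50 bases (51.6 to 82.4%). The 39 bins with sequence outside TADs in both had a median of 12.2% (3.33 to 88.6%), and the 6 bins inside a TAD in 2D only 17.9% (6.59 to 92.4%). With windows of 150 bases, the full read, the medians of these classes were 91.2, 43.8 and 41.0%, in the same order. The cluster bins with sequence had a median of 108 MboI sites, against 99.0 on chromosome 4. With the bins of the assembly gaps included, the mean per bin was 84.6 in the 1400 kb stretch of 2D, 91.3 in the 2160 kb stretch of 3D, and 117 and 116 in the TADs with Mup20, Mup3 and Mup21. Elsewhere on chromosome 4, 107 bins had under 50% unique windows, of which 79.4% were outside TADs in 2D and 80.4% in 3D. The shares were 6.37 and 7.01% for bins with 50 to 70%, and 4.82 and 4.52% for 70 to 80%. They were 4.15 and 2.87% for 80 to 90%, and 10.2 and 6.57% for 90% or more, so they did not fall steadily. In the cluster 87.2% of the 39 bins under 50% were outside TADs in 2D and 100% in 3D. The reference is the same for both lists, so the shares of unique windows apply to both cultures. The part of repeated sequence in the absence of TADs, or in the difference between 2D and 3D, was not tested, as contact counts were not analysed here.

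**Figure D4:**
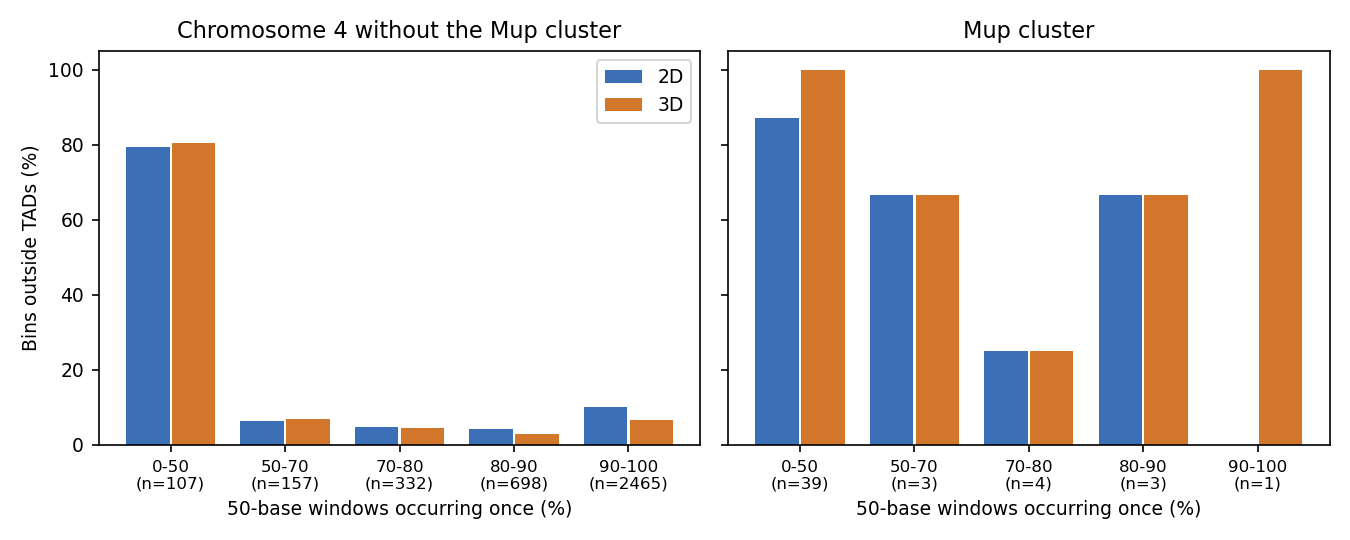
Share of 40 kb bins outside TADs in percent, in 2D (blue) and 3D (orange), by the share of unique 50-base windows of the bin, on chromosome 4 without the Mup cluster (left) and in the Mup cluster (right), with the number of bins under each pair of bars. Bins under 50% unique lie outside TADs in 79.4 and 80.4% of cases outside the cluster and in 87.2 and 100% within it, while the other classes of the cluster hold 1 to 4 bins each.

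Copies recurred across the middle of the cluster. The bin chr4:60520001-60560000, left of Mup10, shared 90.4% of its 50-base windows with the bin chr4:60760001-60800000, 240 kb away, which was the highest share of any pair. Over the 50 bins the best match had a median of 51.7%. It was 53.5% for the bins outside TADs in both lists, and 3.19% for the bins inside TADs in both. The best match of the bins inside a TAD in 2D only had a median of 49.0%. From left to right, the bins of the 160 kb TAD of Mup1 had a best match of 80.3, 64.6, 33.4 and 73.1%. Each of these matches lay in the 1400 kb stretch. For the bin with the start of Mup1 it was the bin of Mup12, the closest relative of Mup1. These values describe the reference sequence, and whether the copies contact each other was not tested. Part of the span has no sequence at all. The assembly has 3 gaps there, of 50000, 300000 and 50000 bp, 18.2% of the span, and all of them lay in stretches outside TADs in both lists.

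**Figure D5:**
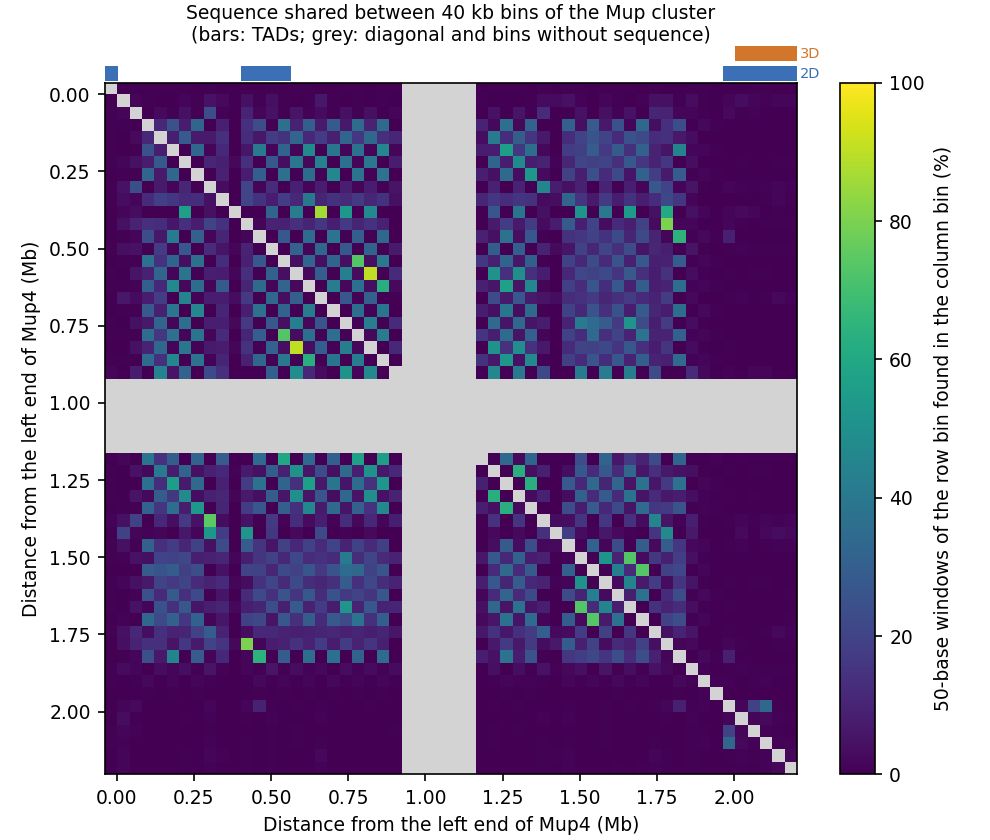
Share of the 50-base windows of each 40 kb bin (rows) that also occur in each other bin (columns), in percent, with both axes as distance from the left end of Mup4 in Mb, TADs of 2D and 3D as bars on top, and the diagonal and bins without sequence in grey. Sharing fills the middle of the cluster, where the highest value is 90.4%, and the best match of the 5 bins at the right where both lists have a TAD has a median of 3.19%.

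Other duplicated liver gene families and other genes of the same setting were placed by the same rules. The Serpina cluster of chromosome 12 (chr12:103614786-104414329, serine protease inhibitors including antitrypsin) held 23 protein-coding genes, all inside 1 TAD in both lists, with no border inside and 80.1% unique windows of 50 bases. The carboxylesterase genes of chromosome 8, which form separate groups, started inside TADs in 19 of 19 cases in both lists. For 10 of these 19 genes it was the same TAD in both. Taken as groups, a choice made after seeing the data, Ces1 with Ces5 (9 genes, 516 kb) and Ces2 with Ces3 and Ces4 (10 genes, 416 kb) lay 100% inside TADs in both lists. The first group held 0 borders and the second 1 border in either list. Nearer to the Mup genes, the lipocalin genes Ambp, Orm1, Orm2 and Orm3 were inside the same TAD in both lists, of 360 kb for Ambp and 240 kb for the Orm genes. The growth hormone axis genes Ghr, Jak2, Stat5a, Stat5b, Bcl6, Cux2 and Hnf4a started inside TADs in both lists, and for Cux2 and Hnf4a it was the same TAD. Ghr, the growth hormone receptor, lay in a TAD of 1960 kb in 2D and of 800 kb in 3D, and Bcl6, a repressor of STAT5 targets, in one of 360 kb in 2D and of 1440 kb in 3D. No comparison between these families and the Mup cluster was tested.

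The counts also depend on how the stretches outside TADs are read. No TAD of either list was shorter than 120 kb, and 96.1% of the stretches in 2D and 95.0% in 3D were an even number of bins long. When such stretches were cut into TADs of 80 kb each, the 400 and 2160 kb stretches disappeared, and 7 members in 2D and 10 in 3D started inside a TAD, which turned the direction of the difference between the cultures. Whether any of these segments was a TAD was not tested.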

How the data were processed

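In situ Hi-C was made from AML12 cells of both cultures, with 2 replicates each. The values are of another kind than counts: start and end positions in base pairs of mm10 of TADs, as deposited by the authors. The authors mapped read ends iteratively with Bowtie 2 (version 2.2.9, as in the submitters' processing notes), from 30 bases in steps of 20 up to 150 bases, kept a mapping quality above 30, combined replicates, normalized 40 kb matrices with ICE, set each chromosome to equal depth in both cultures and called TADs with Armatus (version 1.0, gamma 0.8). The lists carry no read counts, and the read totals of the libraries were not used here.

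Genes came from GENCODE M21, and sequences from RefSeq GRCm38.p6 without patches. A border is a distinct TAD start or end. It is shared within 40 kb. A TAD is the same when both ends lie within 40 kb, and a stretch is the interval between consecutive TADs. A window is unique when it occurs once in the genome on either strand. Scripts used Python 3.11.15, numpy 2.4.6, pandas 2.3.3, numba 0.67.0 and Biopython 1.88, and were tested on simulated data, where 11 of 11 list measures and 4 of 4 window lengths gave the known answers. The members and gene lists were chosen with earlier results of these data known. Named were all members, the 3 nearest other genes on each side and the listed families, together with every TAD and stretch over the span. For sequences, the rule took the 150-base window of a member with the most copies in the genome, the Mup2 intron repeat. The Mup1 exon stretch and the promoters printed were chosen after their values were seen. A gene of these lists is not reported here. Proteins were not used here. No test was made, since there is 1 list per culture. Alternatives changed the gene position, the TADs counted, the span, the border rule and the window length.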

Additional observations from a re-analysis of the deposited data

How the results depend on the processing

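Of 64 values recomputed under other settings of the gene position, TADs, span, borders and windows, 43 stayed within the limits set (1.5 times for counts, the Wilson binomial interval over bins for shares, the sign for differences), 19 moved and 2 changed sign. The Wilson interval treats neighbouring bins as independent, which they are not, so it served only as a yardstick and measures no sampling error. With each stretch of an even number of bins cut into TADs of 80 kb, the members starting inside a TAD numbered 7 in 2D and 10 in 3D, so that the difference of 3D minus 2D was 3 instead of -1, and the span inside TADs was 36.2% in 2D and 100% in 3D, a difference of 63.8 instead of -9.26 percentage points, which follows from the construction, since the 1400 kb stretch has an odd number of bins. With TADs under 200 kb left out, the difference in members was 0, because the 160 kb TAD of Mup1 was dropped, and the span inside TADs was 10.7% in 2D, a difference of 3D minus 2D of -1.97 percentage points, with the sign kept. With genes placed by their midpoint, 2 members were outside TADs in 3D only, Mup4 joining Mup1. With the span widened by 200 kb on each side, 30.6% lay inside TADs in 2D and 16.7% in 3D, the 3D list had 3 borders in it, and 3 borders were shared as seen from either list. With borders only where 2 TADs meet, the span held 0 borders in 2D and 0 in 3D, none was shared (0 and 0), and 0 members lay within 40 kb of one in 2D. With the same position required, 0 borders were shared in 2D and 0 in 3D, and with identical ends required, 0 members had the same TAD. With windows of 150 bases, 49.9% of the span was unique. Of 10 values under alternatives chosen after seeing the data, 4 stayed and 6 moved. Over the 11 bins with at least 50% unique windows, 54.5% lay inside TADs in 2D and 45.5% in 3D. The carboxylesterase span was 93.4% inside TADs in 2D and 95.4% in 3D, and 100% in both for either of its groups alone. The cause of these shifts was not tested beyond what their construction shows. No paired analysis was possible because the replicates of each culture were combined before the TADs were called, and for the same reason no replicate could be left out. What read depth limits in a single TAD was not tested, since the lists carry no counts.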
